A study of Mus musculus with 9 samples.

Results

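Whole brains of mouse embryos whose group had been exposed to poly(I:C) were compared with those of embryos whose group had received saline, both at embryonic day 14, over all expressed autosomal protein-coding genes. Of the 56748 genes in the count table, 16641 were autosomal protein-coding genes with an established symbol, outside pseudogenes and multi-copy families. Of these, 13093 passed a filter on low counts and are called members below. The series had 9 RNA-seq libraries, 3 each from control, poly(I:C) and valproic acid groups, and the design text calls the unexposed mice wildtype. Valproic acid libraries entered the fit and are given beside some of the results. The labels give no strain, dose, route, day of exposure, litter or sex, and they do not say whether a library came from 1 embryo or several, so p-values measure the spread between these libraries only.

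Poly(I:C) is a synthetic double-stranded RNA that imitates viral infection. Cells detect such RNA through the receptor Tlr3 and the cytoplasmic helicases Ifih1 and Ddx58, which switch on interferons, cytokines and, through them, interferon-induced genes. Given during pregnancy it is a widely used model of maternal immune activation, in which IL-6 and IL-17 reach receptors in the fetal brain. At this stage radial glia, the neural stem cells of the ventricular wall, divide and give rise to neurons. Proneural transcription factors such as Neurog2 promote that step and Notch signalling restrains it, and the title of the series names Notch signalling in mouse models of autism.

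The 6 libraries held 16661890 to 19883131 counts in the control group and 17058114 to 18487241 in the poly(I:C) group, and 14590 to 14686 of the 16641 genes had at least 1 count in a library. Mitochondrially encoded genes took 1.48% to 1.59% of counts in these 6 libraries. Transcripts of Y-linked genes summed to 196 to 201 CPM (counts scaled by library size) in replicates 1 and 2 of both groups and to 0 in both replicates 3. Of those, poly(I:C) replicate 3 held Xist, the RNA of the inactive X, at 1048 CPM, whereas control replicate 3 held it at 0.0498 CPM and so carried neither mark. Results are therefore given with and without both replicates 3. Neuron markers summed to 11350 to 11900 CPM across the 6 libraries. Of 26 hindbrain and spinal patterning genes, most of them Hox genes, only 3 passed the filter, Barhl1 and Pax2 among them, and 12 were at 0 in all 6 libraries.

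The poly(I:C) brain differed from control in few genes and by small amounts. Of 13093 members, 60 were called at an edgeR adjusted p under 0.05, or 0.458% (0.536% of all 17171 genes tested): 33 were higher (0.252%) and 27 lower (0.206%). The median size of a called change was 1.27-fold, 25 of the 60 changed by less than 1.25-fold, and 4 changed by at least 2-fold. Genes called lower had moved further, with a median of 1.43-fold, than genes called higher, with a median of 1.23-fold. Both medians cover only genes picked by their p-values, and the median log2 change over all members was -0.00056. In all 60 the 3 poly(I:C) libraries lay apart from the 3 controls, as they did in 2541 members in all (19.4%). The first principal component of members separated the groups, with the controls at -16.3 to -7.28 and the poly(I:C) libraries at 8.97 to 12.4.

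**Figure D1:**
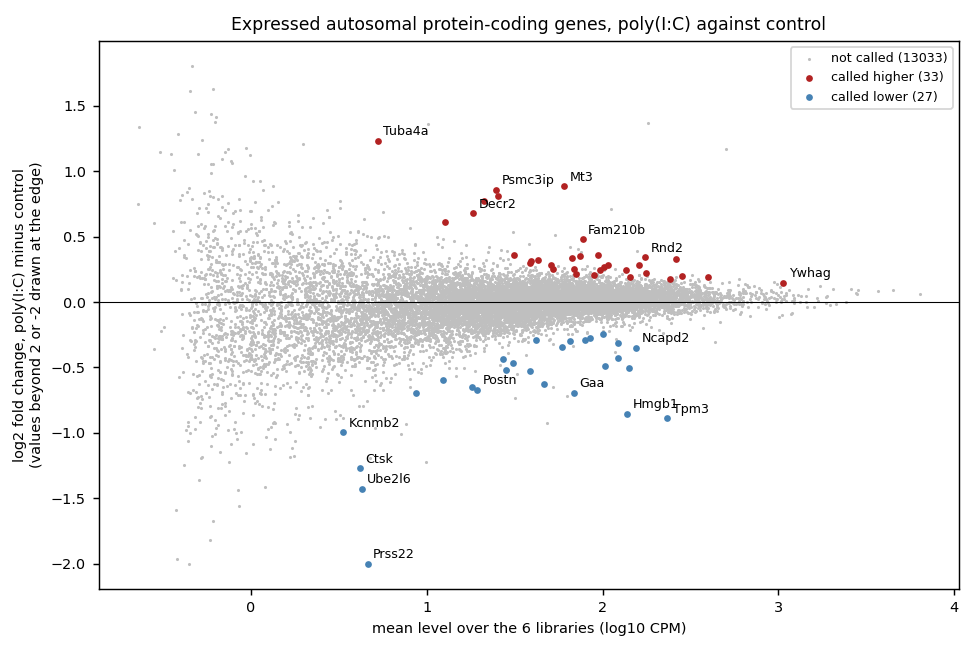
Each point is 1 of the 13093 members: the x axis is its mean level over the 3 control and 3 poly(I:C) libraries in log10 CPM, the y axis its fitted log2 fold change. The 33 members called higher (red) and 27 called lower (blue) lie at the edge of a cloud centred on 0, and 4 of them pass 2-fold, Tuba4a upward and Ctsk, Ube2l6 and Prss22 downward.

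Most members were measured closely enough to bound their change. The median standard error was 0.0775 on the log2 scale, and for 8215 members (62.7%) the whole 95% confidence interval lay within 1.25-fold of no change. For 10739 members (82.0%) it lay within 1.5-fold. The count of calls moved with the libraries and the method. It was 18 to 42 when 1 of the 6 libraries was left out, 18 without both replicates 3, 128 by DESeq2's Wald test and 294 by edgeR with no filter on low counts.

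Of the 60, 15 stayed called in all 6 fits that left out 1 library: Tuba4a, Mt3, Psmc3ip, Tma16, Fam210b, Rnd2 and Neurog2 were higher, and Arl5a, Dap3, Gaa, Hmgb1, Minar2, Ncapd2, Slc12a2 and Tpm3 were lower. All 15 also stayed called with summed Y-linked expression as a covariate, but 15 of the other 45 did not, at edgeR adjusted p-values of 0.0552 to 0.0733. Among those 15 were Arrdc3, Banp, Bop1, Ctnna2, Dlk1, Igf2bp1, Med1, Nhsl1, Ppfibp1, Prss22, Saraf, Scamp1, Ywhag and Zc3h13. Without both replicates 3, 8 of the 15 stayed called (Arl5a, Gaa, Hmgb1, Mt3, Psmc3ip, Slc12a2, Tma16 and Tuba4a). The other 45 lost the call in at least 1 of the 6 fits, with a highest edgeR adjusted p of 0.057 for Nvl and more for the others, and kept their direction in all of them. As the poly(I:C) libraries lay apart from the controls in all 60, leaving out 1 library could hardly reverse a direction. Leaving out control replicate 1 ended 42 of the 60 calls, control replicate 2 ended 28, control replicate 3 ended 37, and poly(I:C) replicates 1, 2 and 3 ended 40, 32 and 37.

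Of those 45, Snapin was lost only without control replicate 1, Invs without control replicate 1 or 3, and Nvl without control or poly(I:C) replicate 1. Dnpep and Zswim5 stayed called in 3 of the 6 fits. Slc38a1, Erf, Tbl3, Kitl, Postn, Rdm1 and Ctsk were among those that stayed called in 2, and 19 members, among them Id2, Ube2l6, Igf2bp1, Glo1, Decr2, Polr1d and Wars, in 1. The remaining 13 lost the call whichever library was left out: Arrdc3, Banp, Bop1, Crb2, Ctnna2, Dlk1, Nhsl1, Ppfibp1, Prss22, Saraf, Scamp1, Ywhag and Zc3h13.

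**Figure D2:**
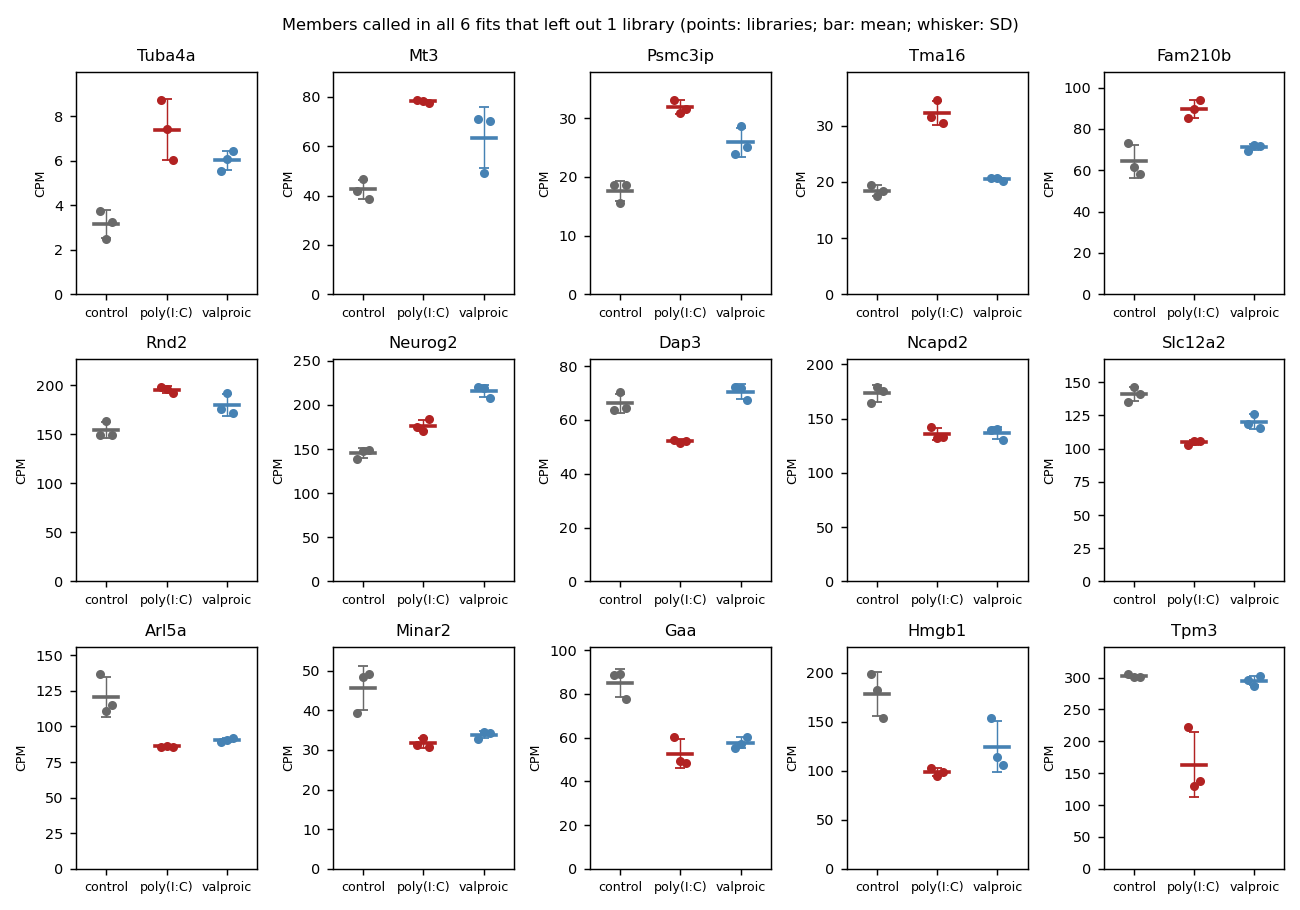
Each panel shows 1 of the 15 members that stayed called in every fit without 1 library, with CPM on an axis from 0, a point for each library, a bar for the group mean and a whisker for the SD. The 3 poly(I:C) points lie wholly above the controls in the first 7 panels and wholly below them in the other 8. The valproic acid points are shown for reference.

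Mt3, a metallothionein of the brain that binds zinc and copper, rose with little spread between libraries. Its level was 41.9, 46.7 and 38.7 CPM in control replicates 1 to 3 and 78.9, 78.4 and 77.7 CPM in poly(I:C) replicates 1 to 3. All poly(I:C) libraries lay within 2 CPM of each other and far above the highest control, a rise of 1.85-fold (log2 0.88 ± 0.11 SE, edgeR adjusted p = 0.00115). The valproic acid libraries were at 71.1, 49.1 and 70.3 CPM. The other metallothioneins tested were not called: Mt1 had 15.99 ± 1.89 CPM in control and 11.97 ± 0.531 CPM in poly(I:C) (SD, n = 3, edgeR adjusted p = 0.252), and Mt2 had less than 1 CPM in both groups. Of 21 antioxidant and metallothionein genes tested Mt3 was the only one called, and the median log2 change of the list was -0.01, beside -0.00056 over all members.

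The promoters of 4 called members are shown as examples of 3 of the motifs searched. Sequences are from RefSeq on GRCm38.p6, from 250 bases before to 50 after the start of the gene, 5′ to 3′ on the strand of the gene, and 41 of the 60 called members and 10327 members in all had one. The counts were made on another build, so these coordinates belong to the promoter table alone. Motifs were searched on both strands and are in capitals. In Mt3 (chr8:94152357-94152656, plus strand) the capitals mark the metal response element (TGCACNC or TGCGCNC), the site of the zinc-sensing factor Mtf1. In Neurog2 (chr3:127632886-127633185, plus strand) they mark an interferon response element (GAAA, any 2 bases, GAAA). In Ncapd2 (chr6:125191537-125191836, minus strand) and Id2 (chr12:25096043-25096342, minus strand) they mark CCAAT boxes (CCAAT, or ATTGG on the other strand).
Mt3: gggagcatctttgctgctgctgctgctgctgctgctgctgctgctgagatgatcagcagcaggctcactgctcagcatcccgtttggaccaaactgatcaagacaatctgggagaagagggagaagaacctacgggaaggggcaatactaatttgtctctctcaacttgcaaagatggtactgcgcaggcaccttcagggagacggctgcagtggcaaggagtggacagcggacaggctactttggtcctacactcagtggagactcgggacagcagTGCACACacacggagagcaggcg
Neurog2: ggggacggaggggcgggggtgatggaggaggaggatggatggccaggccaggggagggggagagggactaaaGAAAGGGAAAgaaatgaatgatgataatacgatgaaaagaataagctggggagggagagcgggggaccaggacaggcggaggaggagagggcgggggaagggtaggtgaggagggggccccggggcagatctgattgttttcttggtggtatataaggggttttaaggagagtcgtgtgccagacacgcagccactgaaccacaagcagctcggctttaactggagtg
Ncapd2: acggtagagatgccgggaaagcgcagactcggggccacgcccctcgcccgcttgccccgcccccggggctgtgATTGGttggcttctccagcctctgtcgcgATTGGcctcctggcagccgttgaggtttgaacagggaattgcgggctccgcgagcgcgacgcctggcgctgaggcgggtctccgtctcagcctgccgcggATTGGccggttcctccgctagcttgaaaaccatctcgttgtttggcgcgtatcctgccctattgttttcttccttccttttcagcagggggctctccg
Id2: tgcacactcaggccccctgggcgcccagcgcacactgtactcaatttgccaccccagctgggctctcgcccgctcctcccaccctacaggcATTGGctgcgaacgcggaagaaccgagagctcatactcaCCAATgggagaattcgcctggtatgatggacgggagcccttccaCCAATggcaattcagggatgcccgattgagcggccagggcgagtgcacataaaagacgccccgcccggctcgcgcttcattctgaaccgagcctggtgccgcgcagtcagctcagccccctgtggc

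The metal response element occurred in 37.1% of all member promoters and in 12 of the 25 promoters of members called higher (48.0%), so a match such as that in Mt3 is common. The interferon response element was rare, in 2.65% of all member promoters. It was in 2 of 25 promoters of members called higher, those of Neurog2 and Zfp213, and in 0 of 16 of members called lower, against 6 of 17 (35.3%) among the interferon-induced genes. CCAAT boxes were in 38.0% of all member promoters, in 9 of 16 of members called lower (56.2%) and in 7 of 25 of members called higher (28%). The differences between these shares were not tested. A match is a run of letters in a window and does not show that a factor binds there.

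No listed gene of the response to double-stranded RNA, interferon or cytokines was called. The 6 immune lists held 74 tested genes, counting a gene once for each list it is in, and 0 of them passed the edgeR threshold in either direction. Ube2l6, the conjugating enzyme of Isg15, is on none of the 6 lists and was called lower, as given below. The lists were chosen with earlier results of these data known, so the count of 0 depends on that choice. The 14 tested sensors and adaptors had a median log2 change of 0.01, the 12 interferon receptor and JAK-STAT genes -0.02, the 10 NF-kB targets, cytokines and chemokines -0.03, and the 8 complement genes -0.00322. Only 10 of 20 listed NF-kB targets, cytokines and chemokines and 19 of 27 interferon-induced genes passed the filter on low counts. The others were not tested, so the count of 0 calls does not cover them. Unadjusted p-values under 0.05 were 1 higher and 1 lower among the sensors, those of the adaptor Traf3 (log2 0.12) and the kinase Ikbke (log2 -0.82, at about 1 CPM), beside 6.83% higher and 5.74% lower over all members. How long after exposure the brains were taken is not in the labels.

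Tlr3, the endosomal receptor of double-stranded RNA, had 2.01 ± 0.464 CPM in control and 1.65 ± 0.394 CPM in poly(I:C) (SD, n = 3). The groups overlapped and the log2 change of -0.29 had a 95% interval of -0.87 to 0.28, so a change of up to about that size was not detectable at this depth. Ifih1, the cytoplasmic helicase also called Mda5, had 0.838 ± 0.0909 CPM in control and 0.912 ± 0.211 CPM in poly(I:C), with an interval of -0.56 to 0.80. The more abundant Dicer1, which cuts double-stranded RNA, had 172 ± 4.95 CPM and 174 ± 2.75 CPM, and Adar, which edits it, had 108 ± 3.36 CPM and 108 ± 1.41 CPM, with intervals for Adar of -0.09 to 0.10. For these genes the data bound any change tightly, and for the sensors of low level they do not.

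The 19 tested interferon-induced genes had a median log2 change of -0.14 with a range of -0.81 to 0.33, and 7 of the 19 had a positive value, beside 49.7% of all members. None was called, and 1 had an unadjusted p under 0.05, Ifit2, which binds foreign RNA and had 14.1 ± 1.18 CPM in control and 10.5 ± 0.636 CPM in poly(I:C) (edgeR adjusted p = 0.243). B2m, the light chain of MHC class I, had 18.8 ± 1.34 CPM in control and 16.8 ± 0.620 CPM in poly(I:C) (edgeR adjusted p = 0.441). Ifitm2, a membrane protein that blocks virus entry, had 12.2 ± 1.498 CPM and 12.6 ± 0.408 CPM. Summed over the list the level was 88.3 to 97.7 CPM in the controls and 80.9 to 89.8 CPM in the poly(I:C) libraries, ranges that overlap.

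Ube2l6 stood outside that list and fell. It encodes the conjugating enzyme that passes the interferon-induced modifier Isg15 to its targets. It had 6.73, 6.601 and 5.38 CPM in the controls and 2.33, 2.47 and 2.12 CPM in poly(I:C), so every poly(I:C) library held less than any control, by 2.69-fold (log2 -1.43 ± 0.25 SE, edgeR adjusted p = 0.0222). The valproic acid libraries were at 8.06, 3.50 and 5.82 CPM. Isg15 itself is among the 19 tested interferon-induced genes and was picked out after the values of Ube2l6 were seen. It had 0.508 ± 0.103 CPM in control and 0.481 ± 0.297 CPM in poly(I:C). The Ube2l6 call was lost when any library other than control replicate 3 was left out, at an edgeR adjusted p of up to 0.0994.

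Receptors for the cytokines of maternal immune activation were not called. Il6st, the signal-transducing chain shared by the IL-6 family, had 75.9 ± 1.65 CPM in control and 73.1 ± 1.12 CPM in poly(I:C), with a 95% interval of -0.15 to 0.04 on the log2 scale. Il17ra had 12.03 ± 0.615 CPM and 11.01 ± 0.928 CPM, with an interval of -0.38 to 0.13. Il6ra, the receptor of IL-6 itself, had 3.02 ± 0.0836 CPM and 2.11 ± 0.542 CPM without overlap (log2 -0.51, unadjusted p = 0.0386, edgeR adjusted p = 0.381). Cntfr, the receptor of ciliary neurotrophic factor in the same family, had 81.1 ± 2.48 CPM and 96.9 ± 9.52 CPM without overlap, but its edgeR adjusted p of 0.0841 missed the threshold. Of 11 tested genes of IL-6 and IL-17 receptor signalling 0 were called, with a median log2 change of 0.06.

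**Figure D3:**
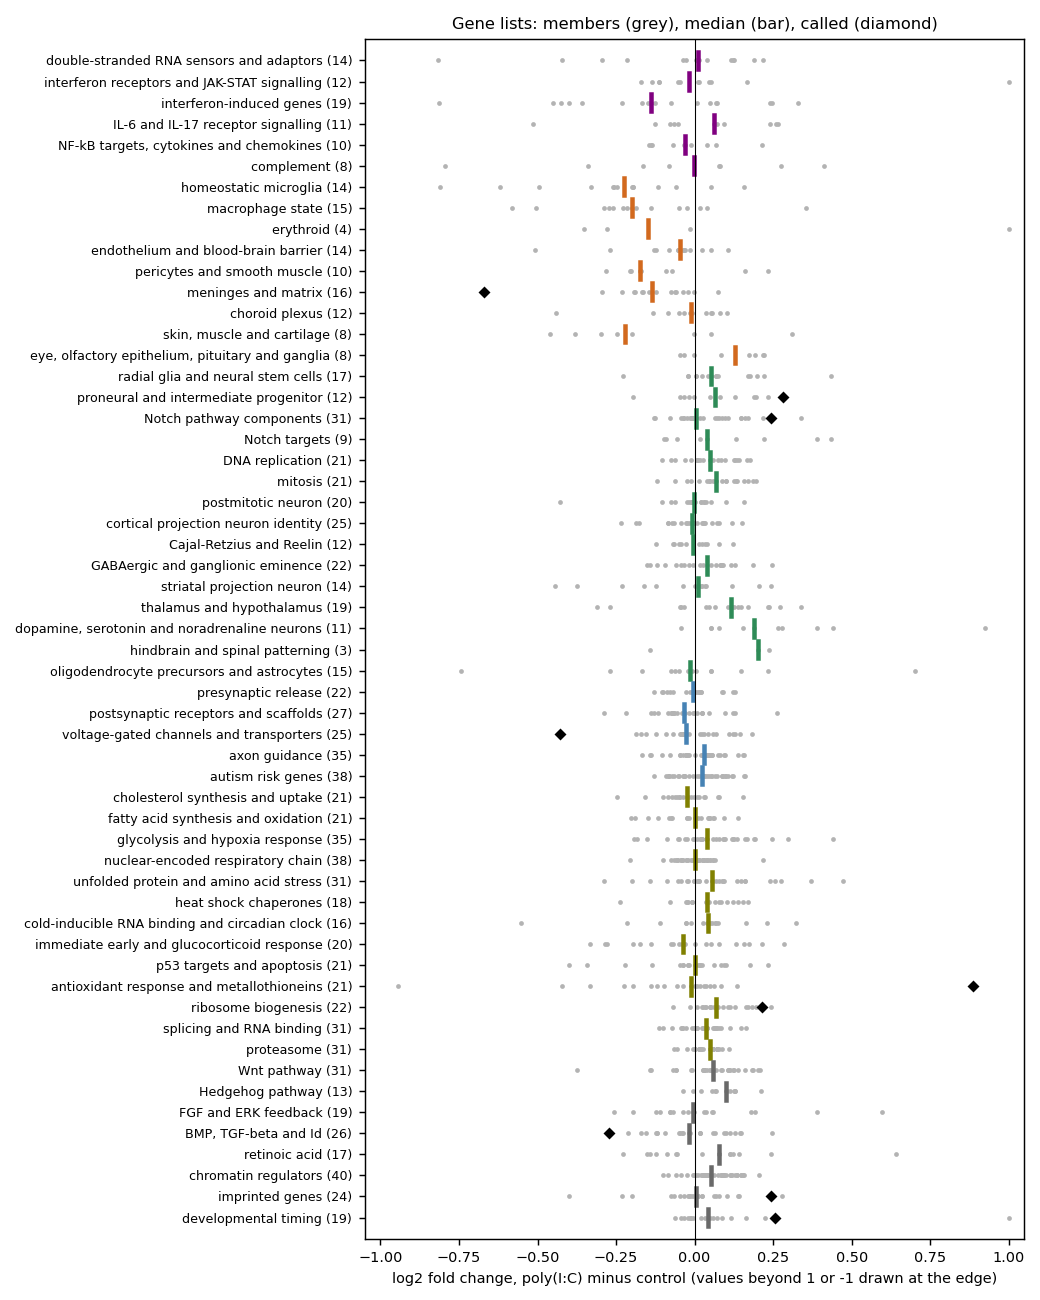
Each row is a gene list with its number of tested members in brackets: grey points are the members' log2 fold changes, coloured bars the list medians, black diamonds the called members, and colours mark immune (purple), other cell type (orange), neural (green), synaptic and axonal (blue), metabolic and stress (olive) and signalling (grey) lists. Most medians lie near 0, and a list with a diamond usually has 1, as Mt3, Neurog2, Slc12a2 and Postn show.

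In the neurogenic programme, Neurog2 and the small GTPase Rnd2 rose. Neurog2, a proneural factor that commits dorsal progenitors to glutamatergic neurons, had 139, 147 and 149 CPM in the controls and 176, 171 and 184 CPM in poly(I:C). The groups did not overlap, and the rise was 1.22-fold (log2 0.28 ± 0.04 SE, edgeR adjusted p = 0.00615). In the valproic acid libraries Neurog2 was at 220, 220 and 208 CPM, and the poly(I:C) libraries lay below them by 0.29 on the log2 scale (edgeR adjusted p = 0.0025).

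Rnd2, which acts in the migration of newborn cortical neurons and is a known target of Neurog2, had 149, 164 and 149 CPM in the controls. The poly(I:C) libraries held 198, 196 and 192 CPM, all above the highest control, a rise of 1.27-fold (log2 0.34 ± 0.05 SE, edgeR adjusted p = 0.00378). Without both replicates 3 the edgeR adjusted p was 0.0704 for Neurog2 and 0.0616 for Rnd2, with log2 changes of 0.27 and 0.34.

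Of 12 tested proneural and intermediate progenitor genes Neurog2 alone was called; the list median was 0.06 on the log2 scale, and 5 of the 12 had an unadjusted p under 0.05 with a higher level, beside 6.83% of all members. Among them, looked up after their values were seen, were Btg2, Gadd45g and Rgs16, with log2 changes of 0.23, 0.19 and 0.20. Eomes, the factor that marks intermediate progenitors, had 149 ± 4.46 CPM and 148 ± 2.96 CPM. Of 20 postmitotic neuron genes and 25 cortical projection neuron genes 0 were called, with medians of -0.00322 and -0.00701.

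Notch components gave 1 call among 31 tested genes, Dlk1, which rose. Dlk1 encodes a transmembrane protein related to the Notch ligands and is imprinted. It had 84.1, 91.1 and 90.0 CPM in the controls and 109, 101 and 105 CPM in poly(I:C) without overlap (1.18-fold, log2 0.24 ± 0.05 SE, edgeR adjusted p = 0.0428). The receptor Notch1 had 142 ± 6.30 CPM and 160 ± 7.28 CPM (log2 0.17, edgeR adjusted p = 0.244), and the ligand Dll1 had 68.2 ± 0.163 CPM and 68.0 ± 2.90 CPM.

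None of 9 tested Notch targets was called. Hes5, a repressor that holds progenitors undifferentiated, had 14.1 ± 3.30 CPM in control and 19.1 ± 1.42 CPM in poly(I:C) (log2 0.43, edgeR adjusted p = 0.229). Hes1, a repressor of the same family, had 15.3 ± 1.5 CPM and 17.8 ± 0.370 CPM (log2 0.22, edgeR adjusted p = 0.322). Neither group pair overlapped, as is true of 19.4% of members. Of 17 tested radial glia genes 0 were called and 6 had an unadjusted p under 0.05 with a higher level (6.83% of all members did), with a median of 0.05.

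Id2 and Crb2 are other regulators of progenitors among the calls. Id2, which binds and blocks proneural basic helix-loop-helix factors, fell from 98.2, 87.5 and 91.4 CPM in the controls to 75.0, 78.0 and 76.3 CPM in poly(I:C). All poly(I:C) libraries were below all controls, by 1.21-fold (log2 -0.27 ± 0.05 SE, edgeR adjusted p = 0.026). Id1, Id3 and Id4, looked up after the values of Id2 were seen, had log2 changes of 0.06, -0.12 and -0.05 with no call. Id2 was the only call among 26 BMP, TGF-beta and Id genes (median -0.02). Crb2, an apical polarity protein of the ventricular surface, had 34.5 ± 1.16 CPM and 42.4 ± 1.15 CPM (1.23-fold, edgeR adjusted p = 0.0281).

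Igf2bp1, an RNA-binding protein that declines as neurogenesis proceeds, rose 1.19-fold, from 63.0 ± 1.32 to 75.2 ± 4.25 CPM (edgeR adjusted p = 0.0428). It was the only call among 19 developmental timing genes. Erf, a repressor controlled by ERK kinase, rose 1.24-fold from 34.9 ± 0.393 to 43.3 ± 1.5 CPM. Prkca, a protein kinase C, rose 1.25-fold from 38.3 ± 2.51 to 47.8 ± 2.43 CPM. Among adhesion and signalling genes of high level, Ctnna2, the neuronal alpha-catenin, rose 1.13-fold from 228 ± 6.97 to 257 ± 3.54 CPM, and Ywhag, the gamma form of 14-3-3, rose 1.11-fold from 1014 ± 21.7 to 1123 ± 8.59 CPM.

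Kitl and Minar2 fell. Kitl, the ligand of the receptor Kit, fell from 136 ± 4.62 to 109 ± 9.44 CPM (1.24-fold, edgeR adjusted p = 0.0305). Minar2, a membrane protein of the nervous system, had 39.3, 48.5 and 49.1 CPM in the controls and 31.2, 33.1 and 30.8 CPM in poly(I:C). Every poly(I:C) library was below every control, by 1.44-fold (log2 -0.53 ± 0.08 SE, edgeR adjusted p = 0.00585).

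Slc12a2, the sodium, potassium and chloride importer NKCC1, fell. In immature neurons it loads the cell with chloride, so that GABA depolarizes, and Slc12a5 (KCC2) later exports chloride. Slc12a2 had 135, 146 and 141 CPM in the controls and 103, 106 and 106 CPM in poly(I:C). The 3 poly(I:C) libraries were close together and below all controls, by 1.35-fold (log2 -0.43 ± 0.05 SE, edgeR adjusted p = 0.000251), and the call held without both replicates 3 (edgeR adjusted p = 0.00805). The valproic acid libraries lay between, at 119, 126 and 116 CPM, and poly(I:C) was lower than valproic acid by 0.20 on the log2 scale (edgeR adjusted p = 0.035).

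Slc12a5, looked up after those values were seen, had 91.7 ± 9.05 CPM in control and 96.2 ± 3.47 CPM in poly(I:C), with groups that overlapped. Slc12a2 was the only call among 25 channel and transporter genes of a list whose median was -0.03. Kcnmb2, a beta subunit of the BK potassium channel outside that list, fell from 4.47 ± 0.454 to 2.24 ± 0.158 CPM (1.99-fold, edgeR adjusted p = 0.0318). Slc38a1, a neuronal glutamine transporter, rose from 233 ± 22.5 to 292 ± 22.7 CPM (1.25-fold, edgeR adjusted p = 0.042).

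No synaptic list other than channels held a call: 0 of 22 presynaptic release genes, 0 of 27 postsynaptic genes, 0 of 35 axon guidance genes and 0 of 38 autism risk genes, with medians of -0.00369, -0.03, 0.03 and 0.02. Nlgn2, which organizes inhibitory synapses, had 358 ± 15.9 CPM and 392.1 ± 9.71 CPM (edgeR adjusted p = 0.204). Outside the lists 2 vesicle genes were called: Snapin, a SNARE-binding protein of vesicles and lysosomes, fell 1.43-fold from 33.4 ± 1.32 to 23.3 ± 2.34 CPM (edgeR adjusted p = 0.0116), and Scamp1, a carrier membrane protein, rose 1.14-fold from 134 ± 1.68 to 153 ± 3.06 CPM (edgeR adjusted p = 0.0406).

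Genes that build ribosomes were among those that rose. Tma16, a factor of the large subunit precursor, had 19.4, 17.4 and 18.5 CPM in the controls and 31.6, 34.7 and 30.6 CPM in poly(I:C). Every poly(I:C) library was above every control, by 1.75-fold (log2 0.81 ± 0.08 SE, edgeR adjusted p = 6.62e-05), the smallest adjusted p of the 60 calls. The valproic acid libraries were at 20.8, 20.8 and 20.1 CPM, and poly(I:C) was higher than valproic acid by 0.65 on the log2 scale (edgeR adjusted p = 0.00045).

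Of 22 ribosome biogenesis genes listed 1 was called, Bop1, a factor of large subunit processing, which rose 1.16-fold from 65.5 ± 1.16 to 76.1 ± 1.68 CPM (edgeR adjusted p = 0.0438). The list had a median log2 change of 0.07, 20 of its 22 genes had a positive value (49.7% of all members did) and 8 had an unadjusted p under 0.05 with a higher level, beside 6.83% of all members. Outside the list and grouped after their values were seen, Nvl, a nucleolar ATPase, rose 1.28-fold (edgeR adjusted p = 0.0094). Polr1d, a subunit of RNA polymerases I and III, rose 1.28-fold (edgeR adjusted p = 0.0392), and Tbl3, of the small subunit processome, rose 1.21-fold (edgeR adjusted p = 0.0222).

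In nucleic acid and chromatin biology, Psmc3ip rose and Ncapd2 fell. Psmc3ip, also called Hop2, is a recombination factor that works with Mnd1. It had 18.6, 15.6 and 18.6 CPM in the controls and 33.2, 30.9 and 31.6 CPM in poly(I:C), a rise of 1.81-fold without overlap (log2 0.86 ± 0.09 SE, edgeR adjusted p = 0.000211). Mnd1, looked up afterwards, had 0.964 ± 0.412 CPM and 0.803 ± 0.0888 CPM. The valproic acid libraries held Psmc3ip at 23.9, 28.7 and 25.2 CPM.

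Ncapd2, a subunit of condensin I that compacts chromosomes in mitosis, had 165, 179 and 176 CPM in the controls and 143, 132 and 133 CPM in poly(I:C). All poly(I:C) libraries were below all controls, by 1.27-fold (log2 -0.35 ± 0.05 SE, edgeR adjusted p = 0.00224). The other condensin genes looked up afterwards were Ncapg, Ncaph and Ncapd3, with log2 changes of -0.18, -0.01 and 0.02 and no call. Of 21 mitosis genes 0 were called, 6 had an unadjusted p under 0.05 with a higher level, beside 6.83% of all members, and the median was 0.07. Of 21 DNA replication genes 0 were called (median 0.05).

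Among 40 chromatin regulators 0 were called, 32 had a positive value (49.7% of all members did) and 11 had an unadjusted p under 0.05 with a higher level (6.83% of all members), with a median of 0.05. Smarca4, the ATPase of BAF complexes, had 614 ± 6.52 CPM and 674 ± 20.6 CPM (edgeR adjusted p = 0.143). Called outside the list were Fbxl19, which binds CpG islands (1.15-fold higher), Acin1, of the exon junction and splicing machinery (1.14-fold higher), Zc3h13, of the m6A writer complex (1.19-fold higher), and Med1, of the Mediator complex (1.18-fold lower). Rdm1, which has a RAD52 motif, fell 1.62-fold from 10.7 ± 1.07 to 6.62 ± 0.809 CPM (edgeR adjusted p = 0.0346).

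Among metabolic enzymes, Gaa and Glo1 fell and Decr2 rose. Gaa, the lysosomal acid alpha-glucosidase that breaks down glycogen, had 88.6, 89.0 and 77.8 CPM in the controls and 60.3, 49.4 and 48.2 CPM in poly(I:C). The groups lay well apart, by 1.62-fold (log2 -0.69 ± 0.08 SE, edgeR adjusted p = 0.000517), and the call held without both replicates 3 (edgeR adjusted p = 0.00215). The valproic acid libraries were at 55.5, 57.2 and 60.5 CPM. Glo1, which detoxifies methylglyoxal from glycolysis, had 162, 169 and 166 CPM in the controls and 110, 105 and 136 CPM in poly(I:C) (1.42-fold lower, edgeR adjusted p = 0.0243).

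Decr2, a peroxisomal enzyme of unsaturated fatty acid oxidation, rose 1.60-fold from 14.2 ± 1.65 to 22.7 ± 1.22 CPM (edgeR adjusted p = 0.0294). Fam210b, a mitochondrial membrane protein, had 73.4, 61.5 and 58.0 CPM in the controls and 85.3, 89.8 and 94.1 CPM in poly(I:C), a rise of 1.40-fold without overlap (log2 0.48 ± 0.07 SE, edgeR adjusted p = 0.00585). Dap3, of the small subunit of the mitochondrial ribosome, fell from 63.8, 70.3 and 64.3 CPM to 52.7, 51.4 and 52.2 CPM, also without overlap (1.27-fold, log2 -0.34 ± 0.05 SE, edgeR adjusted p = 0.00751). In the valproic acid libraries Dap3 was at 72.2, 71.9 and 67.3 CPM.

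No metabolic or stress list other than ribosome biogenesis and antioxidants held a call. The counts were 0 of 35 for glycolysis and hypoxia, 0 of 38 for the nuclear-encoded respiratory chain, 0 of 21 for cholesterol, 0 of 21 for fatty acids, 0 of 31 for the unfolded protein and amino acid stress response, 0 of 18 for heat shock chaperones and 0 of 31 for the proteasome. In the unfolded protein list 9 of 31 genes had an unadjusted p under 0.05 with a higher level, beside 6.83% of all members, and the median was 0.06. Its chaperone Calr had 501 ± 23.4 CPM in control and 533 ± 20.99 CPM in poly(I:C) (edgeR adjusted p = 0.516), and its chaperone Hspa5 had 336 ± 4.71 CPM and 375 ± 27.5 CPM (edgeR adjusted p = 0.204). Wars, the cytosolic tryptophanyl-tRNA synthetase, rose 1.22-fold from 96.4 ± 8.83 to 117 ± 3.61 CPM (edgeR adjusted p = 0.0428), and Oaz2, an antizyme that restrains polyamine synthesis, rose 1.17-fold from 163 ± 1.33 to 190 ± 2.22 CPM (edgeR adjusted p = 0.0205).

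Tuba4a, an alpha-tubulin, showed the largest rise of the called members. It had 3.72, 2.48 and 3.23 CPM in the controls and 8.73, 7.41 and 6.01 CPM in poly(I:C). Every poly(I:C) library was above every control, by 2.35-fold (log2 1.23 ± 0.18 SE, edgeR adjusted p = 0.00585), and the valproic acid libraries were at 5.55, 6.06 and 6.41 CPM. Invs, which encodes the ciliary protein inversin, rose 1.71-fold from 15.7 ± 1.23 to 26.9 ± 6.32 CPM (edgeR adjusted p = 0.0192). Arl5a, a small GTPase of the Golgi, had 137, 111 and 115 CPM in the controls and 85.6, 86.3 and 85.9 CPM in poly(I:C), a fall of 1.40-fold without overlap (log2 -0.49 ± 0.06 SE, edgeR adjusted p = 0.00205).

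**Figure D4:**
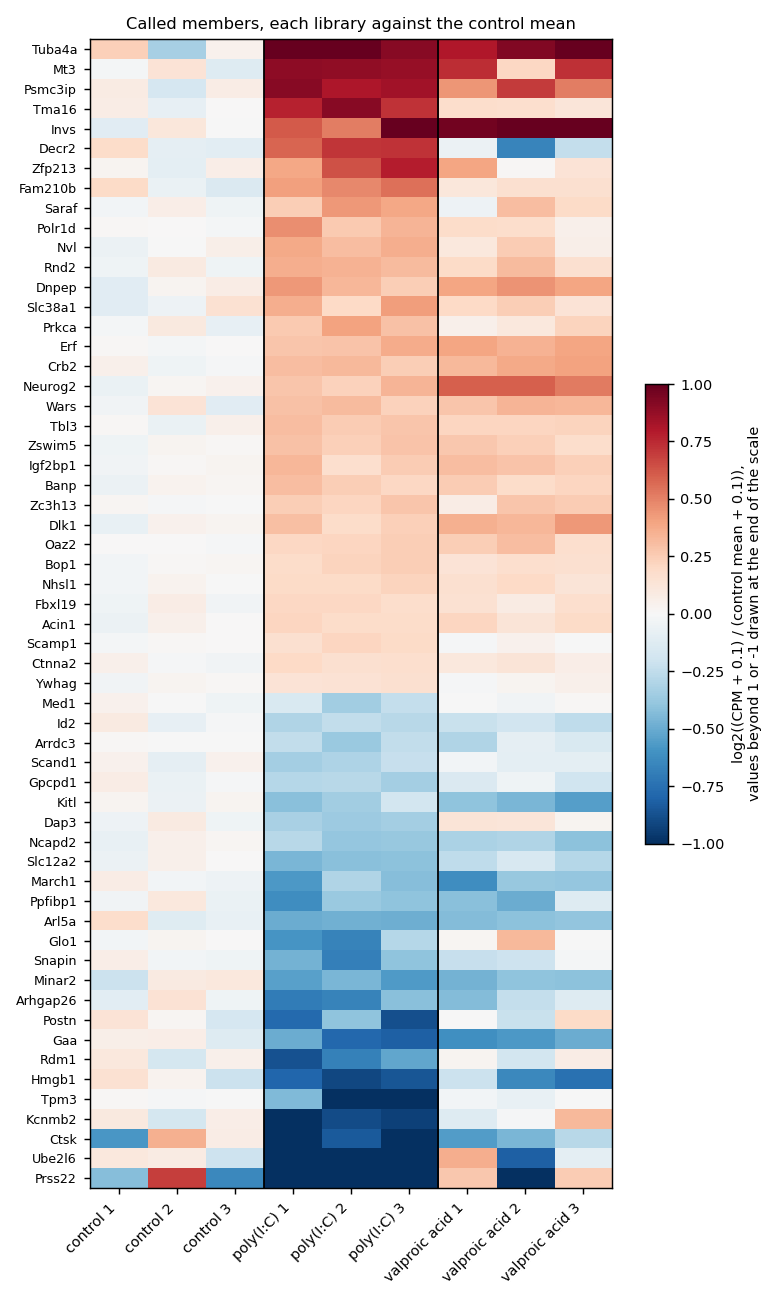
Rows are 58 of the 60 called members in order of fold change and columns the 9 libraries. Colour is the log2 ratio of each library's CPM plus 0.1 to the control mean plus 0.1, from -1 (blue) to 1 (red). Each row changes colour between the control and poly(I:C) columns. The valproic acid libraries entered the fit, but not the contrast that chose the rows. Their columns are stronger for Neurog2 and near control for Tma16, Dap3, Glo1 and Tpm3.

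Both exposures were compared with the same 3 control libraries, so likeness between the exposures cannot be read from calls against control. The direct comparison of poly(I:C) with valproic acid called 344 members (2.63%). Among the 60 members called against control it called 18, 6 of those higher and 12 of those lower than control. These genes were chosen with the same poly(I:C) libraries, so the count is a description. In all 3 valproic acid libraries Y-linked transcripts summed to 0 and Xist was at 981 to 1055 CPM. Poly(I:C) replicates 1 and 2 instead held Y-linked transcripts at 201 and 196 CPM. Exposure and these sex marks therefore cannot be fully told apart in this comparison, including for the genes given above. Besides those given above, Ywhag was higher in poly(I:C) than in valproic acid by 0.13 and Scamp1 by 0.18 on the log2 scale, and Decr2 by 0.98. Lower were Postn (log2 -0.67), Rdm1 (-0.67), Med1 (-0.24) and Glo1 (-0.63). Also called between the exposures was Fam210b (log2 0.34), which was higher in poly(I:C). Dap3 (-0.44), Snapin (-0.37), Tpm3 (-0.85), Kcnmb2 (-1.07), Ube2l6 (-1.32) and Prss22 were called lower. Most of the 60 were not called between the exposures. For example, Ncapd2 had means of 136 CPM in poly(I:C) and 137 CPM in valproic acid. Arl5a had 85.9 and 90.5 CPM, Minar2 31.7 and 33.9 CPM, and Id2 76.4 and 79.1 CPM. Changes against control in such genes were not shown to be particular to poly(I:C).

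Some of the largest changes were in genes that share sequence with copies elsewhere in the genome, where read assignment can move counts from one to another. Tpm3, a tropomyosin, had 305, 301 and 301 CPM in the controls and 222, 130 and 138 CPM in poly(I:C), a fall of 1.85-fold (edgeR adjusted p = 0.00719). Its related copy Tpm3-rs7, set aside from the members after its values were seen, had 35.3, 36.2 and 30.8 CPM in the controls and 104, 200 and 187 CPM in poly(I:C). The copy was high in the libraries in which Tpm3 was low. Their sum was 336 ± 4.19 CPM in control and 327 ± 2.20 CPM in poly(I:C) (SD, n = 3), a ratio of 0.972 with no overlap (exact two-sided permutation p = 0.1, the smallest that 3 against 3 allows), so the fall of Tpm3 alone is uncertain.

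Hmgb1, a chromatin protein that acts as an alarm signal when released from cells, had 198, 183 and 154 CPM in the controls and 103, 94.6 and 98.4 CPM in poly(I:C). It fell by 1.81-fold without overlap (log2 -0.85 ± 0.11 SE, edgeR adjusted p = 0.00215). Its pseudogene Hmgb1-ps7 had 0.472, 0.959 and 11.4 CPM in the controls and 25.3, 25.2 and 25.0 CPM in poly(I:C). Among the controls this pseudogene was highest in replicate 3, where Hmgb1 was lowest. Counted together with its 3 tested pseudogenes the level of Hmgb1 was 207 ± 14.9 CPM in control and 154 ± 5.19 CPM in poly(I:C), a ratio of 0.742, also with no overlap (exact two-sided permutation p = 0.1). The sum holds only the pseudogenes tested, so the size of the Hmgb1 fall is uncertain.

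**Figure D5:**
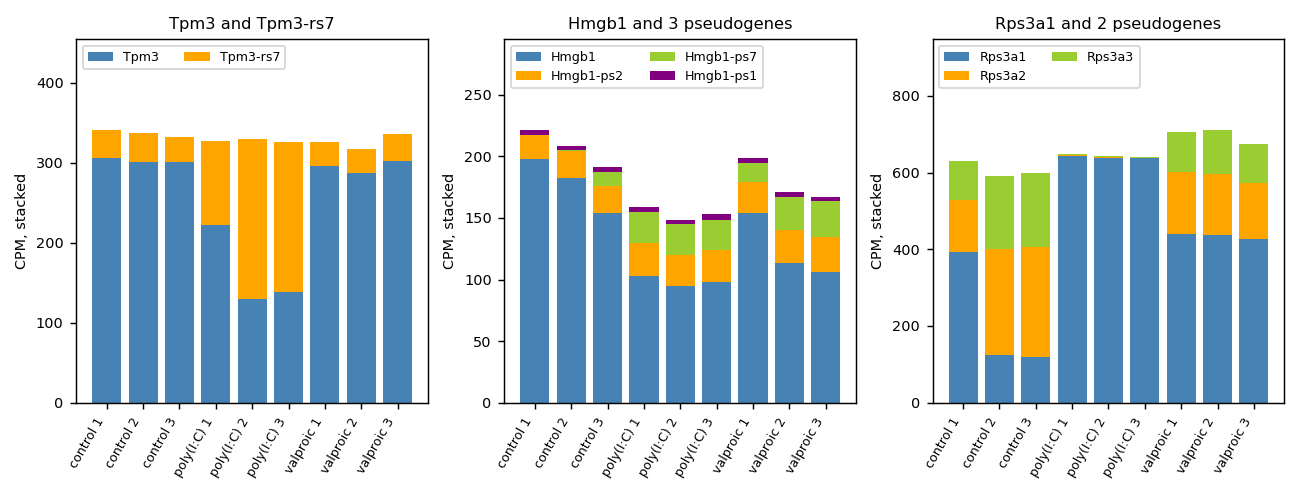
Stacked bars give the CPM in each of the 9 libraries for Tpm3 with Tpm3-rs7, Hmgb1 with 3 pseudogenes and Rps3a1 with 2 pseudogenes, on axes from 0. The stacks of Tpm3 and of Rps3a1 differ less in height between libraries than their parts do, and the Hmgb1 stack is lower in poly(I:C), 149 to 159 CPM, than in control, 192 to 221 CPM.

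Prss22, a serine protease, was the one called member with no count in a whole group. It had 116, 265 and 118 counts in the controls and 0 in each poly(I:C) library, at least 52.2-fold lower against a floor of 3 counts per library. Valproic acid replicates 1 and 3 held 191 and 168 counts and replicate 2 held 0. The set-aside pseudogene Rps2-ps10 was present and near absent in the same libraries, with 213, 441 and 212 CPM in control, 2.01, 2.53 and 2.24 CPM in poly(I:C), and 241, 2.74 and 233 CPM in valproic acid. The cause of this presence or absence was not tested.

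Of genes of matrix, Postn and Ctsk fell, and so did March1, which is on neither the macrophage nor the microglia list. Postn, or periostin, a matrix protein of fibroblasts, had 26.03, 23.98 and 21.05 CPM in the controls and 13.8, 17.9 and 12.8 CPM in poly(I:C). It fell 1.59-fold without overlap (log2 -0.67 ± 0.13 SE, edgeR adjusted p = 0.0406) and was the only call among 16 meningeal and matrix genes, whose median was -0.13. In the whole list 15 of 16 had a negative value, beside 50.3% of all members, and their summed level was 1083 to 1153 CPM in the controls and 987 to 1037 CPM in poly(I:C). In bulk tissue fewer cells of a type and less RNA per cell cannot be told apart.

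Ctsk, or cathepsin K, a collagen-degrading protease of osteoclasts and fibroblasts, had 3.90, 7.56 and 6.22 CPM in the controls and 1.90, 3.24 and 2.18 CPM in poly(I:C), a fall of 2.42-fold (edgeR adjusted p = 0.0406). Of 15 macrophage genes 0 were called and 5 (Apoe, Lyz2, Pf4, Lpl and F13a1) had an unadjusted p under 0.05 with a lower level, beside 5.74% of all members, with a median of -0.20. Apoe, a lipid carrier of macrophages and glia, had 154 ± 7.12 CPM and 132 ± 6.44 CPM (edgeR adjusted p = 0.0778). Outside that list, March1, a ubiquitin ligase of MHC class II, was called and fell 1.35-fold from 31.2 ± 1.44 to 23.1 ± 2.19 CPM (edgeR adjusted p = 0.0431). Which cells of the brain held March1 was not tested.

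Summed macrophage markers were 542 to 574 CPM in control and 490 to 527 CPM in poly(I:C), and pericyte and smooth muscle markers were 300 to 307 CPM and 286 to 291 CPM, each without overlap. Most of the macrophage sum was Ctsb (mean 197 CPM), Apoe (143 CPM) and Ctsd (76.3 CPM), so it says little about the markers of low level. Choroid plexus markers were 584 to 729 CPM and 604 to 689 CPM, with overlap. Microglia markers summed to 470 to 472 CPM and 461 to 480 CPM, also with overlap, but most of that sum was Sparc (mean 286 CPM) and Sall1 (79.2 CPM). Those 2 had positive values and the other 12 of 14 tested microglia markers negative ones, with a list median of -0.22 on the log2 scale. None was called, and 3 had an unadjusted p under 0.05 with a lower level, Csf1r (log2 -0.20), Olfml3 (-0.62) and Fcer1g (-0.81), beside 5.74% of all members. Erythroid markers were 1795 to 2094 CPM and 1388 to 2018 CPM, and globins took 0.178% to 0.206% of counts in control and 0.135% to 0.198% in poly(I:C). Of the markers of other cell types, Krt5 of skin and Tyr of pigment cells were among those at 0 in all 6 libraries. The part of these cells in the calls was not tested.

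The remaining calls were spread over functions. Higher were Zfp213, a zinc finger gene (1.53-fold), Saraf, which slows store-operated calcium entry (1.28-fold), Dnpep, an aminopeptidase (1.26-fold), Zswim5 (1.21-fold), Banp (1.19-fold) and Nhsl1 (1.15-fold). Lower were Arhgap26, a GTPase-activating protein (1.51-fold), Ppfibp1, a liprin (1.38-fold), Gpcpd1, a phosphodiesterase of glycerophosphocholine (1.23-fold), Scand1 (1.23-fold) and Arrdc3, an arrestin-like adaptor (1.22-fold). The threshold fell inside a continuous run of values: Saraf was the last member called (edgeR adjusted p = 0.0499), and Pik3cd (0.0508), Pde4dip (0.0518) and Ddb2 (0.0534) were the next.

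Called members were found on 17 of the 19 autosomes, with chromosomes 3 and 11 holding 7 each, or 1.06% of 659 members and 0.642% of 1090, and chromosomes 16 and 19 holding 0. In the order of members along the chromosomes, 16 of the 60 (26.7%) had another called member within 20 positions, against 2060 of the 13029 other members (15.8%), with the 4 symbols that 2 members share counted once. March1 and Tma16 were direct neighbours on chromosome 8 and moved in opposite directions. Wars and Dlk1 on chromosome 12 had 2 members between them and both rose. With 3 between them, Tuba4a and Dnpep on chromosome 1 both rose, and Rnd2 and Rdm1 on chromosome 11 moved in opposite directions. Slc12a2 and Minar2 on chromosome 18 had 4 between them and both fell.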

How the data were processed

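RNA of whole embryonic brain was measured by RNA-seq in 9 libraries, 3 for each of control, poly(I:C) and valproic acid. Per the labels' protocols, total RNA was depleted of ribosomal RNA and randomly fragmented for the libraries. The authors deposited a single table of raw counts by gene, which entered the tests without change. Per the submitters' processing notes, HISAT2 and GRCm39 (mm39) were used. The counting tool and strand setting are not given in the labels or file header. Reads of antisense or overlapping genes may therefore be mixed. Replicates were grouped by their labels. Symbols, biotypes, chromosomes and gene order came from GENCODE release M21, which rests on GRCm38, so no coordinates of the counted genes are given.

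In R 4.3.3 with edgeR 4.0.16, a filter on low counts (filterByExpr with a minimum count of 10 and a minimum total of 15) left 17171 genes. All 9 libraries were scaled by TMM and fitted by edgeR's quasi-likelihood method with a mean per group. Contrasts were tested by its two-sided F-test and adjusted by Benjamini-Hochberg over all 17171 genes, and a call is an adjusted p under 0.05. CPM values use the TMM factors. Sums over genes were compared by an exact two-sided permutation test. Set aside were genes of sex chromosomes and mitochondria, genes with no symbol, pseudogenes, other biotypes, clone names, and multi-copy families such as ribosomal proteins, globins, histones and clustered protocadherins. Genes named as related sequence copies were added to these after the values were seen. A few genes counted in the totals are not reported here by name. The set-aside genes, 4078 of those tested, gave 32 calls (0.785%).

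Named were the 15 members that rose most and the 15 that fell most among those called with a mean of at least 1 CPM and groups that did not overlap, the 5 most abundant called in each direction, and of each list up to 4 called members or, with none called, 1 or 2 of the most abundant. Also named, whatever their values, were Hes5, Hes1, Dll1, Notch1, Il17ra, Il6st, Ifih1 and Tlr3. The called members outside this rule (Erf, Crb2, Wars, Tbl3, Zswim5, Banp, Zc3h13, Oaz2, Nhsl1, Scamp1, Med1, Arrdc3, Scand1, Gpcpd1, Kitl, Dap3, March1, Ppfibp1 and Arl5a) and Cntfr, Ifit2, Traf3, Ikbke, Lyz2, Pf4, Lpl, F13a1, Il6ra, Csf1r, Olfml3, Fcer1g, Barhl1 and Pax2 were named after their values were seen. The members and the gene lists were chosen with earlier results of these data known, and the metal response element was added as a motif after the values were seen. Alternatives included DESeq2 1.42.0, other filters and scalings, a replicate block, a Y-linked covariate and leaving out libraries.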

Additional observations from a re-analysis of the deposited data

How the results depend on the processing

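The 60 calls among members (33 higher, 27 lower) became 294 (145 and 149) with no filter on low counts, 128 (78 and 50) by DESeq2's Wald test and 18 (8 and 10) without both replicates 3, and 13 of those 18 were among the 60. Without valproic acid replicate 2, chosen after seeing the data, there were 82 (43 and 39), all 60 among them. Without 1 library of the 6 compared there were 18 to 42 calls, 8 to 21 of them higher and 10 to 22 lower. Other scalings, a filter of at least 1 CPM in 3 libraries, only the 6 libraries compared and the Y-linked covariate gave 48 to 72 calls. With Tpm3-rs7 counted as a member there were 61 calls. No call of the 60 changed sign in any alternative fitted. Since the poly(I:C) and control libraries lay apart in all 60, fits that left out libraries could hardly change a sign. Of the named genes called against control, 15 were also called between poly(I:C) and valproic acid, and 7 to 9 without 1 poly(I:C) library. The cause of these differences was not tested, beyond the fewer libraries in some fits. The labels do not say that replicate numbers pair the libraries. The deviations of same-numbered control and poly(I:C) libraries correlated at -0.0254, -0.00563 and -0.0243, and those of differently numbered ones at -0.0502 to 0.0746. With 3 libraries per group such values cannot exclude a pairing that acts on some genes. With the replicate number as a block there were 51 calls on 9 libraries and 60 on 6, of which 42 and 44 were among the 60. Genes at a few CPM, such as Tlr3 and Ifih1, were limited by depth.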

Other observations

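Of the 32 calls among the genes set aside, 12 were higher and 20 lower, and 22 changed by at least 2-fold, against 4 of 60 members. Rps3a1, a ribosomal protein gene, had 393, 124 and 119 CPM in control and 644, 638 and 637 CPM in poly(I:C), while its pseudogene Rps3a2 had 135, 277 and 287 CPM and then 2.55, 3.08 and 2.47 CPM. Summed with Rps3a3, they held 607 ± 21.5 CPM in control and 644 ± 3.40 CPM in poly(I:C), a ratio of 1.06, with no overlap (exact two-sided permutation p = 0.1).

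The X-linked gene Nudt10, a phosphohydrolase of inositol phosphates, had 30.29, 31.54 and 30.66 CPM in control and 22.02, 23.01 and 20.97 CPM in poly(I:C) (1.40-fold lower, edgeR adjusted p = 0.00416). It was looked up after its values were seen.

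Pde4dip, a centrosomal and Golgi protein just outside the call, had 191, 203 and 185 CPM in control and 134, 134 and 68.1 CPM in poly(I:C) (edgeR adjusted p = 0.0518). Its libraries did not overlap, and poly(I:C) replicate 3 was the lowest.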
